A study of Mus musculus with 9 samples.

Results

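The 2 mutants that block canonical microRNA (miRNA) production at successive steps were set directly against each other: 3 arrays of Dgcr8 KO and 3 arrays of Dicer KO mouse embryonic stem (ES) cells, 6 of the 9 arrays of the series. The other 3 arrays hold wild-type (WT) v6.5 ES cells. Dgcr8 KO cells carry a deletion of exon 3 of Dgcr8 that leads to a premature stop, and Dicer KO cells lack Dicer1. Each genotype was plated in triplicate and its total RNA put on an Affymetrix mouse gene 1.0 ST array. Whether each mutant is a single clone, and how far its background matches that of the WT line, is not given in the sources used here, so a difference between the lines and a difference between the mutations cannot be told apart. The comparison covers 22371 autosomal transcript clusters with a gene symbol, of 23309 tested. A transcript cluster is the array's group of probes for 1 transcript, and 1216 of the 19895 autosomal symbols have several. All values are log2, and every difference is Dgcr8 KO minus Dicer KO. The direct comparison uses no WT array for its difference. The WT values are given only to place the mutants, and the comparisons of either mutant with WT share those 3 arrays.

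Dgcr8 binds the primary miRNA transcript and, with the nuclease Drosha, cuts it in the nucleus to release a hairpin. Dicer cuts that hairpin in the cytoplasm into the mature miRNA, and it also makes small RNAs that need no Dgcr8, such as endogenous siRNAs and mirtron miRNAs. Both mutants lack canonical mature miRNAs, so that a direct comparison leaves this shared loss out.

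The arrays of a mutant correlated with r of 0.997 to 0.998 over all clusters tested, X-linked ones included, and arrays of different mutants with r of 0.988 to 0.989. The array medians lay between 6.49 and 6.56. Of the ES cell markers Pou5f1, Nanog, Sox2, Zfp42, Esrrb, Dppa5a, Dppa4, Utf1, Sall4 and Tdgf1, all 10 were measured and lay at or above percentile 87.8 of all clusters. Their summed linear level was 40665 to 41434 in Dgcr8 KO, 44023 to 44406 in Dicer KO and 35138 to 36301 in WT. For 1139 clusters the 3 arrays of a genotype hold the same value, which leaves no spread for that genotype.

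Each targeted gene was low in the mutant named for it. Dgcr8 read 8.74, 8.96 and 8.86 on the Dgcr8 KO arrays, 9.98, 9.99 and 9.99 on the Dicer KO arrays, and 9.76, 9.81 and 9.82 on the WT arrays. Dicer1 read 10.40, 10.47 and 10.39 in Dgcr8 KO against 8.33, 8.43 and 8.32 in Dicer KO, beside WT values of 10.18, 10.18 and 10.23. For neither gene did the arrays of the mutants overlap. The difference was -1.13 for Dgcr8 (SE 0.0588, limma, adjusted p = 1.77e-06) and 2.06, or 4.18-fold, for Dicer1 (SE 0.0511, limma, adjusted p = 2.43e-08). Dgcr8 was also 0.19 above WT in Dicer KO (adjusted p = 0.0312), and Dicer1 0.23 above WT in Dgcr8 KO. Drosha, the nuclease partner of Dgcr8, read 10.45, 10.50 and 10.35 in Dgcr8 KO against 10.50, 10.47 and 10.38 in Dicer KO and was not called. Xpo5, which exports the hairpin from the nucleus, was 0.36 higher in Dgcr8 KO, and Prkra, a partner of Dicer, 0.39 lower (log2 difference -0.39). Lin28a, which blocks let-7 maturation, was 0.46 higher in Dgcr8 KO, though its mean was 10.78 in WT and its highest value in any mutant array was 7.86.

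The transcripts that differed most were those of the miRNA genes themselves. The mature miRNAs below come from the 4 precursors with the largest measured differences, all on chromosome 12, and their seeds (bases 2 to 8) are in capitals. In GRCm38.p6 the mature miRNAs lie on the plus strand, miR-136-5p at chr12:109595331-109595352, miR-376b-3p at chr12:109723508-109723528, miR-127-3p at chr12:109592888-109592909 and miR-434-3p at chr12:109594565-109594586.
miR-136-5p: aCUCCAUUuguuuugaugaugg
miR-376b-3p: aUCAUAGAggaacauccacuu
miR-127-3p: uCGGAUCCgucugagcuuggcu
miR-434-3p: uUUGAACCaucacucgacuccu

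A second set shows seed families picked by name, those of miR-17, miR-302b and miR-16. Members of the families AAAGUGC and AGCAGCA lie on different chromosomes. A shared direction is not particular to these seeds: of all 285 clusters of miRNA genes, 134 were called higher and 1 lower. The first 4 share the seed AAAGUGC and come from 2 primary transcripts, miR-17-5p (chr14:115043684-115043706) and miR-20a-5p (chr14:115044183-115044205) on the plus strand, and miR-93-5p (chr5:138165574-138165596) and miR-106b-5p (chr5:138165787-138165807) on the minus strand. The next pair, miR-302b-3p (chr3:127545275-127545297) and miR-302d-3p (chr3:127545665-127545687), has the seed AAGUGCU, the same letters moved by 1 base. Both of these lie close together on chromosome 3, in the same group of neighbouring precursors. The last, miR-15a-5p (chr14:61632075-61632096, minus strand) and miR-16-5p (here from Mir16-2, chr3:69009918-69009939, plus strand), have the seed AGCAGCA. The sequences and positions are those of RefSeq on GRCm38.p6.
miR-17-5p: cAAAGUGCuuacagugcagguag
miR-20a-5p: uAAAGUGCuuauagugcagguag
miR-93-5p: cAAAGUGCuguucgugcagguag
miR-106b-5p: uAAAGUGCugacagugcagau
miR-302b-3p: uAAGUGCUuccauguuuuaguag
miR-302d-3p: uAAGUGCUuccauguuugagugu
miR-15a-5p: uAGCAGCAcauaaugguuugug
miR-16-5p: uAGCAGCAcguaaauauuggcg

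Transcripts of miRNA genes were higher in Dgcr8 KO than in Dicer KO over much of the genome. The array reports the RNA over the miRNA hairpin, that is the primary transcript or hairpin, and not the mature miRNA. Of 285 clusters that hold only miRNA genes, 134 (47.0%) were called higher in Dgcr8 KO (limma, Benjamini-Hochberg adjusted p under 0.05) and 1 was called lower, where 11.9% and 12.4% of all autosomal clusters were called higher and lower. Their median difference was 0.28, against 0.04 over all clusters, and 59 were at least 2-fold higher. Several clusters carry identical values, and counted once the miRNA clusters were 264, of which 126 were called higher. Mir692-1, the single one called lower, differed by -0.31 and was no longer called without Dgcr8 KO replicate 3 (-0.31), Dicer KO replicate 2 (-0.31) or Dicer KO replicate 3 (-0.30).

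Mir136 read 8.63, 8.79 and 8.51 in Dgcr8 KO against 4.69, 3.80 and 4.28 in Dicer KO, beside WT values of 4.24, 4.57 and 4.24. The difference was 4.39 (SE 0.197, limma, adjusted p = 6.32e-07), and Dicer KO was not called against WT. The Dicer KO and WT levels of Mir136, Mir376b and Mir434 were all under 5.50, the upper bound of the dimmest of 4 equal bins of clusters by level, so the sizes of these differences and their rank are not exact. The other precursors of the first set of sequences were also high in Dgcr8 KO, with no overlap. Mir376b read 8.07, 8.65 and 8.28 against 4.21, 4.32 and 4.28 (difference 4.06). Mir127 read 10.14, 10.32 and 10.24 against 6.49, 6.44 and 6.55 (difference 3.74). Mir434 read 7.92, 8.64 and 7.87 against 4.20, 4.64 and 4.44 (difference 3.71). All 4 belong to the imprinted region around Dlk1 and Meg3, where miRNA genes lie in dense groups on 1 strand.

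Neighbouring precursors moved together. Joining precursors no more than 10 kb apart gave 8 groups with at least 3 measured. In the Mir17 to Mir19b-1 group of chromosome 14, the cluster known for promoting cell growth, all 5 measured precursors (Mir17, Mir18, Mir19a, Mir20a and Mir19b-1) were higher by 2.90 to 3.60. Mir17 read 10.43, 10.44 and 10.46 in Dgcr8 KO against 6.88, 6.83 and 6.84 in Dicer KO, beside WT values of 6.53, 6.74 and 6.66, so that Dicer KO lay much closer to WT than Dgcr8 KO did. On chromosome 6 Mir182, Mir96 and Mir183, a group expressed in sensory cells, were higher by 2.41 to 2.80, 3 of 3. On chromosome 3 the ES cell group of Mir302b, Mir302c, Mir302a, Mir302d and Mir367 was higher by 1.30 to 2.35, 5 of 5. The 2 groups of chromosome 12 gave 8 of 8 between Mir673 and Mir136, with differences of 0.27 to 4.39, and 26 of 29 between Mir379 and Mir369, with differences of -0.08 to 4.06. The members of such a group are cut from a shared transcript, so their number is not a number of independent genes.

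By seed, Mir17, Mir20a, Mir93 and Mir106b, which share AAAGUGC, were all higher, by 1.55 to 3.60. Mir93 read 8.42, 8.80 and 8.69 in Dgcr8 KO against 7.02, 6.84 and 6.89 in Dicer KO, with no overlap. Of the 6 with AGCAGCA, 5 were called higher and Mir497 (0.24) was not. Of 7 let-7 precursors with the seed GAGGUAG, 5 were called higher, and of the 3 Mir7 precursors with GGAAGAC, 0. Within AGCAGCA the differences ran from 0.24 to 2.26.

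**Figure D1:**
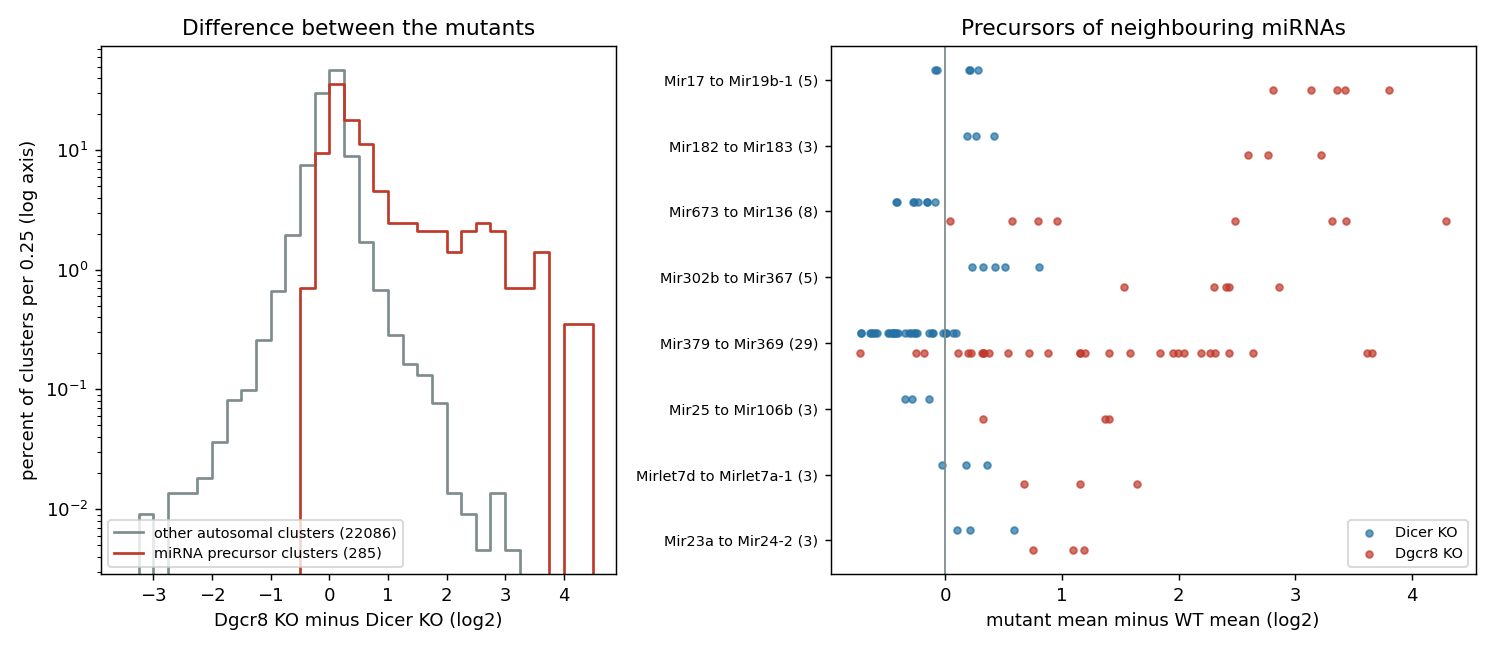
Left, the percent of clusters (log axis) per step of 0.25 in the log2 difference Dgcr8 KO minus Dicer KO, for 285 miRNA precursor clusters (red) and 22086 other autosomal clusters (grey). Right, each point is a precursor's mutant mean minus its WT mean (log2) in the 8 groups of neighbouring precursors, Dgcr8 KO in red and Dicer KO in blue: the blue points lie closer to the WT line than most of the red points, which lie to the right of it.

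WT placed most of these differences on the side of Dgcr8 KO. Of the 134 precursor clusters called higher, Dgcr8 KO was above WT for 107 and below it for 1, whereas Dicer KO was below WT for 23 and above it for 19. WT differed from Dgcr8 KO alone for 73, from both mutants for 35, from Dicer KO alone for 7 and from neither for 19. Small nucleolar RNAs (snoRNAs), which guide the modification of ribosomal RNA, gave a like share, but here WT lay with Dgcr8 KO more often. Of 57 snoRNA clusters 27 (47.4%) were called higher and 0 lower, with a median of 0.22 and sizes of 0.15 to 0.61, and for 22 of the 27 it was Dicer KO that lay below WT. Snora16a read 9.59, 9.35 and 9.29 in Dgcr8 KO against 8.82, 8.71 and 8.86 in Dicer KO, beside WT values of 9.48, 9.70 and 9.58 (difference 0.61). Snora3 (0.55), Snord16a (0.55) and Snord104 (0.54) were also called higher. Leaving out 1 array gave 20 to 28 snoRNA clusters called higher, and 1 was over 1.5-fold.

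Over all autosomal clusters the mutants differed often and mostly by little. The call was made for 2668 higher and 2764 lower, together 5432 or 24.3%. In 4352 of them (80.1%) the difference was under 1.5-fold, whereas 214 were at least 2-fold higher and 115 at least 2-fold lower, and 43 and 12 at least 4-fold. The median size of a difference was 0.126 over all clusters, against a median SE of 0.0736. The arrays of the mutants did not overlap for 9372 clusters, or 41.9%. When every array was centred on its own median, the calls split 1768 higher to 3582 lower in place of 2668 to 2764, a share higher of 33.0% against 49.1%, so the split by direction over all genes depends on the scaling.

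The direction of the calls went with the level of the transcript. In the dimmest of 4 equal bins of clusters, with means of 2.17 to 5.50, 6.08% were called higher and 0.84% lower. In the brightest bin, with means of 8.69 to 14.8, 13.7% were called higher and 24.5% lower. Above the median level 14.9% of 11260 clusters were called higher and 21.7% lower, with a median difference of -0.028. A list of well expressed genes should be set beside these shares rather than those over all clusters.

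**Figure D2:**
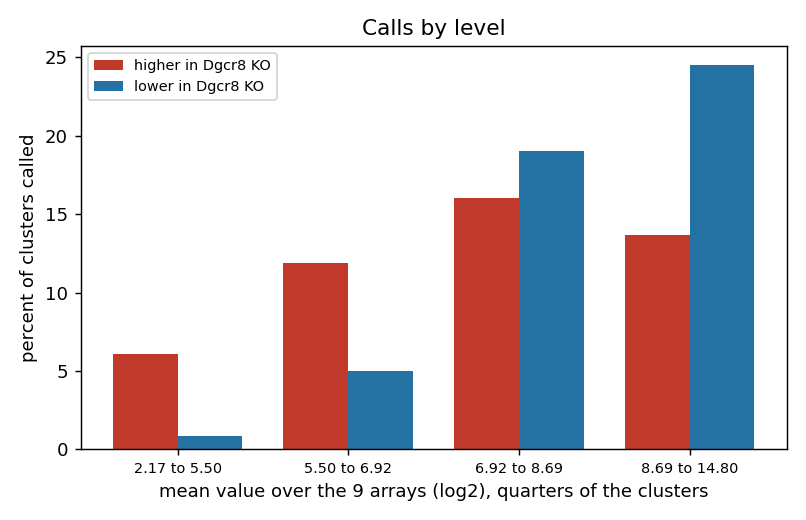
Bars give the percent of autosomal clusters called higher (red) or lower (blue) in Dgcr8 KO relative to Dicer KO, in 4 equal bins of the clusters by their mean log2 value over the 9 arrays. Calls of lower grew from 0.84% in the dimmest to 24.5% in the brightest bin.

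Against WT, the calls were spread over all positions. Of the 2668 clusters called higher, WT differed from both mutants for 1012, from Dicer KO alone for 713, from Dgcr8 KO alone for 592 and from neither for 351. For those called lower the counts were 1246, 740, 589 and 189. The mutants lay on opposite sides of WT, each called against it, for 167 of the clusters called higher and 146 of those called lower.

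Genes were ranked among called clusters with a single symbol, no array overlap and a mean above the median level in the higher mutant. Predicted genes were left out. The largest difference of a protein coding gene ranked so was that of Slc13a5, a sodium-coupled citrate carrier of the plasma membrane. It read 7.13, 6.90 and 7.12 in Dgcr8 KO against 10.09, 10.19 and 10.09 in Dicer KO, beside WT values of 6.11, 6.27 and 6.22. It was 8.42-fold lower in Dgcr8 KO (log2 -3.07, SE 0.0734, limma, adjusted p = 2.41e-08), and both mutants lay above WT. Loxl4, an enzyme that crosslinks collagen, had the same order, with 7.28 to 7.32 against 9.93 to 10.01 (difference -2.68). Calml4, a calmodulin-like protein, showed another order: 5.64, 5.55 and 5.07 in Dgcr8 KO against 8.14, 8.03 and 8.12 in Dicer KO, beside WT values of 8.03, 8.14 and 8.19, so Dgcr8 KO stood apart from both (difference -2.68).

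Among the next genes lower in Dgcr8 KO, Krtdap, a secreted protein of keratinocytes, differed by -2.42, the meiotic cohesin subunit Smc1b by -2.32, the protein-crosslinking enzyme Tgm2 by -2.12, and the coagulation inhibitor Tfpi by -2.10. Anxa1, a calcium-dependent membrane binding protein, read 8.68, 8.87 and 8.74 against 10.82, 10.90 and 10.80 (difference -2.07), with WT at 8.43, 8.74 and 8.71. Anxa1, Tgm2 (WT mean 7.50) and Abca1, the cholesterol exporter (difference -1.89, WT mean 7.13), were called against WT in Dicer KO but not in Dgcr8 KO.

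Of the genes higher in Dgcr8 KO, Pla2g1b, a secreted phospholipase, led with 10.05, 10.06 and 10.06 against 7.45, 7.19 and 7.27 (difference 2.75, SE 0.0639, limma, adjusted p = 2.36e-08). In WT it read 11.24, 11.21 and 11.21, so both mutants were below WT. Tenm3, a teneurin that guides wiring between neurons, read 8.78, 8.99 and 8.73 against 6.17, 6.33 and 6.26 (difference 2.58), with WT between them at 7.78, 7.94 and 7.91. Pdpn, a mucin-like membrane glycoprotein, read 9.47, 9.52 and 9.55 against 7.15, 7.16 and 7.32 (difference 2.30), and its WT arrays, at 9.25, 9.29 and 9.29, lay close to Dgcr8 KO. The cytoskeletal protein Septin1 (2.02), the protease inhibitor A2m (1.89), the teneurin Tenm4 (1.84), the kinase Hunk (1.84) and the growth-arrest zinc finger Plagl1 (1.78) were among the next. Zbtb44 has a second cluster that was not called (0.13) beside the one at 1.98, and that of Tenm4 gave 0.89.

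**Figure D3:**
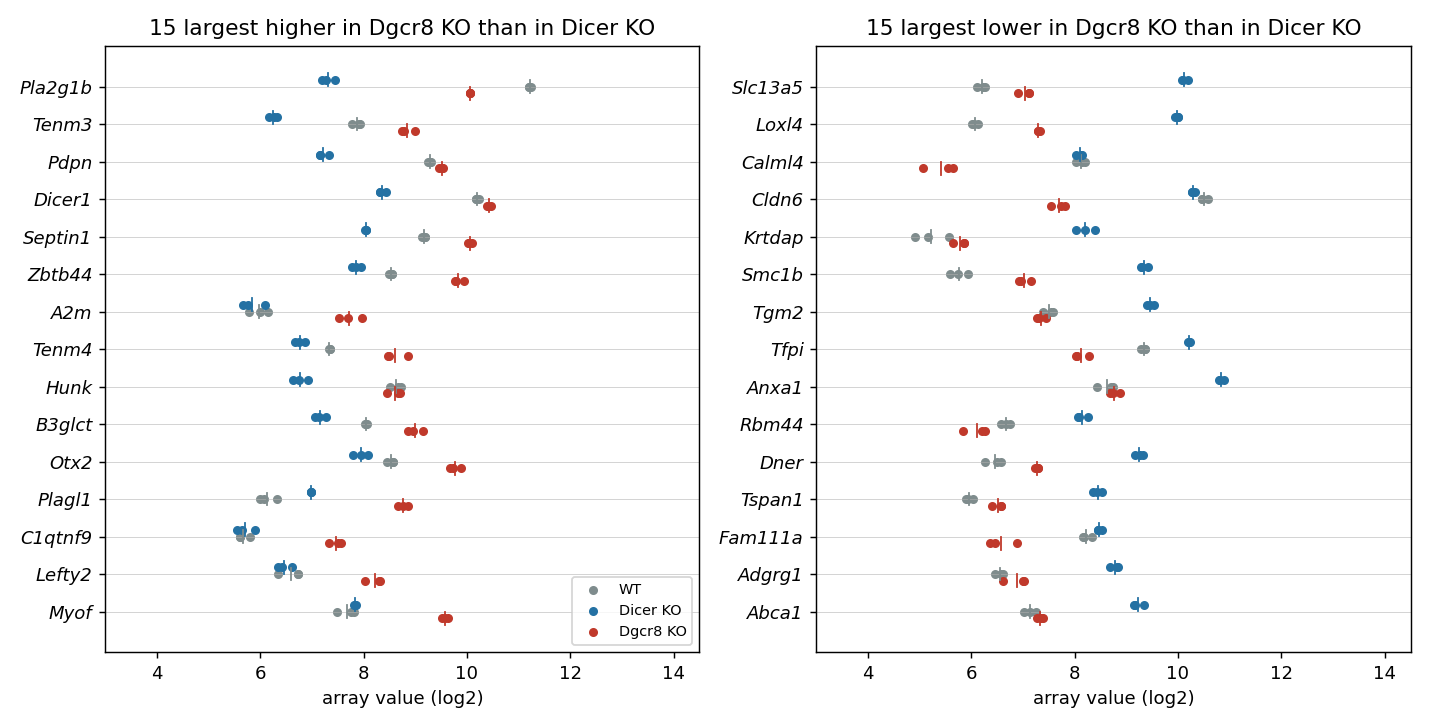
Each point is an array's log2 value, with a tick at the mean of the 3 arrays: Dgcr8 KO in red, Dicer KO in blue, WT in grey. Shown are the 15 largest called genes in each direction among those that passed the filters, which include no overlap of the mutants. The red and blue points of a gene do not overlap, and the grey points lie with either mutant or between them, or, as for Pla2g1b and Slc13a5, outside both.

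Genes with the mutants on opposite sides of WT were of mixed function. Tenm3, Septin1, Zbtb44, the glycosyltransferase B3glct (1.83), the transcription repressor Bcl11a (1.72) and Kctd16, an auxiliary subunit of GABA-B receptors (1.53), were above WT in Dgcr8 KO and below it in Dicer KO. Tfpi, the urate pathway enzyme Urah (-1.62), the zinc importer Slc39a4 (-1.53), the ketone metabolism enzyme Bdh2 (-1.31), the Wnt ligand Wnt7b (-1.27) and the claudin Cldn9 (-1.25) were the reverse. Wnt7b read 7.02, 7.07 and 7.10 in Dgcr8 KO, 7.67, 7.77 and 7.67 in WT, and 8.39, 8.34 and 8.25 in Dicer KO.

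By function, lists that leaned to one side included epithelial junctions and keratins, the vacuolar proton pump and sterol synthesis on the lower side, and miRNA precursors, snoRNAs and early neural genes on the higher side. Annexins and S100 proteins and sensors of foreign RNA and DNA also leaned lower and Hedgehog genes higher, with counts given below. Some other lists had calls in both directions. Of 59 cytoplasmic ribosomal protein genes 5 were called higher and 4 lower, of 60 replication and mitosis genes 12 and 13, of 55 imprinted genes 12 and 11, and of 338 zinc finger genes named Zfp 49 and 32. A list gives 1 cluster per gene, the brightest, and over all autosomal genes counted so, 11.8% were called higher and 12.4% lower. For clusters above the median level the shares were 14.9% and 21.7%.

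**Figure D4:**
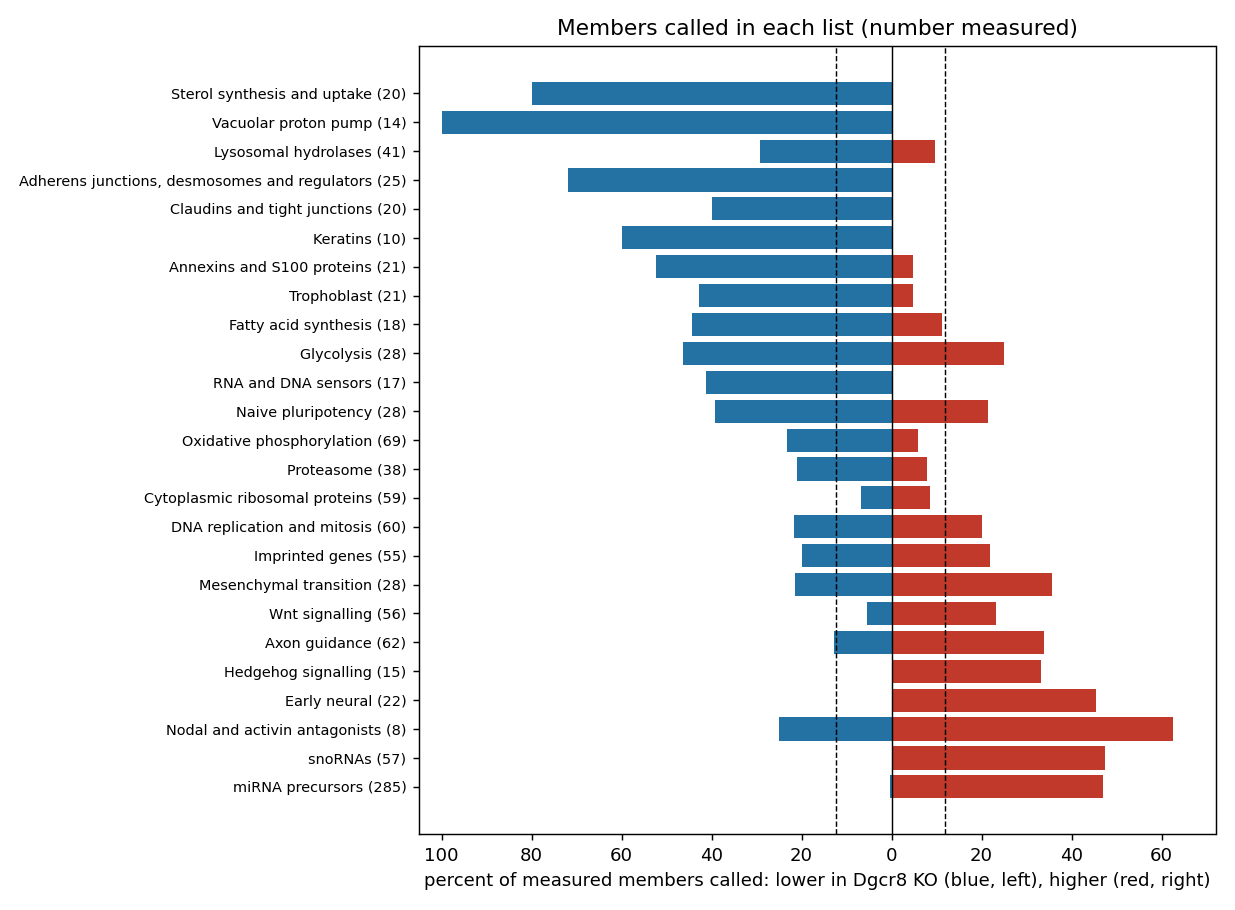
Bars give the percent of a list's measured members called lower (blue, to the left) or higher (red, to the right) in Dgcr8 KO than in Dicer KO, with the number measured in brackets. Dashed lines mark the shares over all autosomal clusters, 12.4% lower and 11.9% higher: 14 of 14 proton pump subunits and 16 of 20 sterol genes were lower. Clusters above the median level gave 21.7% lower and 14.9% higher. The lower shares of oxidative phosphorylation (23.2%) and proteasome genes (21.1%) were near that 21.7%.

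Genes of epithelial junctions and keratin filaments were lower in Dgcr8 KO relative to Dicer KO. Of 55 measured, 32 (58.2%) were called lower and 0 higher, with a median difference of -0.26. By role, 18 of 25 adherens junction, desmosome and regulator genes, 8 of 20 claudin and tight junction genes and 6 of 10 keratins were called lower. The largest was Cldn6, a claudin that seals tight junctions and marks early epithelia. It read 7.54, 7.73 and 7.82 in Dgcr8 KO against 10.32, 10.27 and 10.27 in Dicer KO, beside WT values of 10.46, 10.47 and 10.59 (difference -2.59, SE 0.0731, limma, adjusted p = 4.91e-08). Dicer KO was just below WT and Dgcr8 KO far below both.

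The other leading members did not share that order. Krt17, a keratin of stressed and basal epithelia, read 9.35, 9.32 and 9.35 in Dgcr8 KO against 11.16, 11.05 and 11.16 in Dicer KO, beside WT values of 7.70, 7.62 and 7.65 (difference -1.78). Dsp, which ties desmosomes to keratin, read 8.03, 8.03 and 8.01 against 9.66, 9.66 and 9.60, above WT at 7.47, 7.61 and 7.69 (difference -1.62). In both genes the 2 mutants were above WT, Dicer KO the more so. Krt19 read 7.49, 7.55 and 7.61 against 9.22, 9.36 and 9.22 with WT between them at 8.03, 8.11 and 8.11 (difference -1.71). Krt18, the partner of Krt8 in simple epithelia, read 7.77, 7.86 and 7.98 against 9.35, 9.35 and 9.35, both below WT at 9.79, 9.93 and 9.88 (difference -1.48).

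Further claudins were Cldn7 (-1.56), Cldn3 (-1.21) and Cldn4 (-0.93), and further desmosome genes Perp (-0.92) and Dsg2 (-0.87), a desmosomal cadherin. The epithelial transcription factors Elf3 (-1.20), Grhl2 (-0.59) and Ovol2 (-0.25) were called lower, as was the splicing factor Esrp1 (-0.45). Cdh1, E-cadherin itself, differed by no more than -0.21 (11.10, 11.02 and 11.05 against 11.28, 11.26 and 11.26), and Epcam by -0.26. Ocln (-0.09) and Tjp1 (0.03), both of tight junctions, were not called. Of the 32 called members Dgcr8 KO was below WT for 22, Dicer KO was above WT for 19, and both held for 9.

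Of the transcription factors known to repress epithelial genes, Zeb1, Zeb2 and Twist1 were called higher in Dgcr8 KO. Zeb1, a repressor that binds the E-box CAGGTG, read 8.58, 8.54 and 8.43 in Dgcr8 KO against 7.30, 7.33 and 7.31 in Dicer KO, beside WT values of 7.05, 7.19 and 7.32 (difference 1.21, SE 0.0716, limma, adjusted p = 3.78e-06). Dgcr8 KO alone lay above. Zeb2 differed by 0.40 and Twist1 by 0.42, and Snai1 (0.19) and Snai2 (0.16) were not called. Vim, the mesenchymal filament protein, was 0.68 higher. The list of mesenchymal transition genes as a whole was mixed, with 10 of 28 called higher and 6 lower, the lower ones being Anxa1, S100a6 (-1.84), Thbs1 (-0.93), Tgfb1 (-0.57), Anxa2 (-0.40) and Tgfbr2 (-0.29). Anxa1, Anxa2 and S100a6 also belong to the annexins and S100 proteins, calcium binding proteins of which 11 of 21 were called lower and 1 higher.

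The promoters of 3 epithelial members are printed, picked because their windows hold the motif named above. They are the called members with the largest differences among those with a match. Krt17 and Krt19, with larger differences than Dsp, were passed over. The windows run from 250 bases before to 50 after the transcription start in RefSeq of GRCm38.p6, all on the plus strand: Cldn6 at chr17:23679115-23679414, Dsp at chr13:38151044-38151343 and Cldn7 at chr11:69965171-69965470. Capitals mark CAGGTG, or CACCTG where it lies on the other strand.
Cldn6: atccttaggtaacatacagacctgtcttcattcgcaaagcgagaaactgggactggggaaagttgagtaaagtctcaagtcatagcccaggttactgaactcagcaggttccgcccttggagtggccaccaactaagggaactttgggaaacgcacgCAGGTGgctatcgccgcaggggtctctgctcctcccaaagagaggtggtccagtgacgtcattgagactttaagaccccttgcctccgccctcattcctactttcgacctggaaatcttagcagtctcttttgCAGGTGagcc
Dsp: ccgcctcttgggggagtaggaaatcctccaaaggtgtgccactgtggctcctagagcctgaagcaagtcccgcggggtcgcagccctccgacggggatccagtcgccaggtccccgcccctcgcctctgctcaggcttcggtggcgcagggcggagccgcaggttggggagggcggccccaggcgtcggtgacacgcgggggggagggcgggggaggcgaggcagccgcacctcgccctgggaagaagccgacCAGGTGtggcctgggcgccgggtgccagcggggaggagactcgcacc
Cldn7: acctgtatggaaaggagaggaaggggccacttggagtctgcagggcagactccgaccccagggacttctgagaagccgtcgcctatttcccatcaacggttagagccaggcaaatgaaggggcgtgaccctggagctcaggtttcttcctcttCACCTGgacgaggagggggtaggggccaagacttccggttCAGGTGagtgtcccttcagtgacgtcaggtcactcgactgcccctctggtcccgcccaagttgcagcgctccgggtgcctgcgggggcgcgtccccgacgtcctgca

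With both strands searched, CAGGTG occurred in the windows of 15 of 19 epithelial members called lower (78.9%) and of 4 of 16 not called, counted over members with a promoter in the table. It was in 22.6% of the 27025 genes with a promoter and in 24.7% of all autosomal genes called lower. In all, 9 motifs were searched, a match is letters and not a bound site, and the motif's part in the difference was not tested.

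Every measured subunit of the vacuolar proton pump was lower in Dgcr8 KO relative to Dicer KO. This pump uses ATP to acidify lysosomes and endosomes. All 14 were called lower, with differences of -0.15 to -0.72 and a median of -0.41. The arrays did not overlap in 14 of 14, as they did not in 41.9% of all autosomal clusters. Atp6v1a, the catalytic subunit, read 9.78, 9.85 and 9.87 in Dgcr8 KO against 10.50, 10.65 and 10.52 in Dicer KO, beside a WT mean of 10.14 (difference -0.72, SE 0.0559, limma, adjusted p = 1.9e-05). Atp6v1d differed by -0.58, Atp6v1e1 by -0.46, Atp6v1c1 by -0.46 and Atp6v0e by -0.43. The changes are small: 1 of the 14 was over 1.5-fold, and 11 to 14 of them were called when any 1 array was left out. Dicer KO was above WT for 11 of the 14 and Dgcr8 KO below WT for 6.

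The other lysosomal genes leaned the same way less strongly and with exceptions. Of 83 measured lysosomal genes, the 14 pump subunits included, 39 (47.0%) were called lower and 9 higher (5 higher with arrays centred on their medians). Among 41 hydrolases 12 were lower and 4 higher, among 18 membrane proteins 8 and 3, and among 10 regulators 5 and 2. The hydrolases were thus lower in 29.3%, with a median of -0.026, beside 21.7% of all clusters above the median level. The protease Ctsc read 6.17, 5.99 and 5.66 against 7.20, 7.23 and 6.99 (difference -1.21), the membrane protein Cd63 8.09, 8.21 and 7.82 against 9.20, 9.21 and 9.10 (-1.13), and the protease Ctsl 8.95, 9.05 and 8.94 against 9.97, 9.93 and 10.03. Glb1, the lysosomal beta-galactosidase, went the other way with 9.16, 9.33 and 9.20 against 8.25, 8.34 and 8.39 (0.90), as did Laptm4b (0.93). Tfeb, a transcription factor for lysosomal genes, differed by -0.27, while the related Mitf differed by 0.28. For 32 of the 39 members called lower, pump subunits included, Dicer KO was above WT, and Dgcr8 KO was above WT for 11 and below it for 12.

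The promoter of Atp6v1a (GRCm38.p6, chr16:44139210-44139509, minus strand, written in the direction of transcription) is shown with the palindrome TCACGTGA in capitals, which holds the E-box CACGTG that Tfeb and related factors bind.
Atp6v1a: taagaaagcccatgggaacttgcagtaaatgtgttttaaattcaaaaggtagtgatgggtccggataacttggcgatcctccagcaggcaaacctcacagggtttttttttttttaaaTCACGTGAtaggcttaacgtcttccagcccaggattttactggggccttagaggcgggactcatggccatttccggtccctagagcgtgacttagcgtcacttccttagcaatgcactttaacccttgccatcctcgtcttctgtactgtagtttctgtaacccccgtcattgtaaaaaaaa

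CACGTG occurred in 4 of 9 proton pump promoters (44.4%) and in 20 of 69 lysosomal promoters (29.0%), against 8.09% of all genes with a promoter, and TCACGTGA in 3 of 9 pump promoters against 1.12%. Outside the lysosomal list, CACGTG was in 5 of 16 sterol promoters (31.2%) and in 11.4% of all autosomal genes called lower, and CAGGTG was in 4 of 9 pump promoters too. The Srebf site TCACNCCAC was in 1 of 14 sterol genes called lower and in 1.44% of all genes with a promoter. Within the lysosomal list CACGTG was in 32.3% of the members called lower and in 29.0% of those not called.

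Most measured genes of sterol synthesis and uptake were lower in Dgcr8 KO. Of 20 measured genes 16 (80.0%) were called lower and 0 higher, with a median of -0.41. Idi1, which interconverts the isoprene units, read 9.09, 9.16 and 9.01 in Dgcr8 KO against 10.12, 10.10 and 10.09 in Dicer KO, beside WT values of 9.75, 9.87 and 9.89 (difference -1.02, SE 0.0581, limma, adjusted p = 2.98e-06). The mutants lay on opposite sides of WT. The demethylation enzymes Msmo1 (10.11, 10.20 and 10.11 against 11.17, 11.04 and 11.15, difference -0.98) and Cyp51 (-0.84) and the feedback regulator Insig1 (9.27, 9.37 and 9.26 against 10.24, 10.13 and 10.24, difference -0.90) followed. Along the pathway, Hmgcs1 differed by -0.64, Pmvk by -0.57, Fdft1 by -0.47, Lss by -0.44 and Dhcr7 by -0.38. Srebf2, the transcription factor that drives the pathway, was 0.48 lower (-0.48), and Srebf1 -0.28. Mvk, Sqle, Stard4 and Tm7sf2 were not called. Dgcr8 KO was below WT for 10 of the 16, Dicer KO above WT for 11, and both for 5. In fatty acid synthesis 8 of 18 were called lower and 2 higher, led by the elongase Elovl7 (-1.30), the desaturase Scd1 (-0.89), the acyltransferase Agpat2 (-0.74) and malic enzyme Me1 (-0.72).

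**Figure D5:**
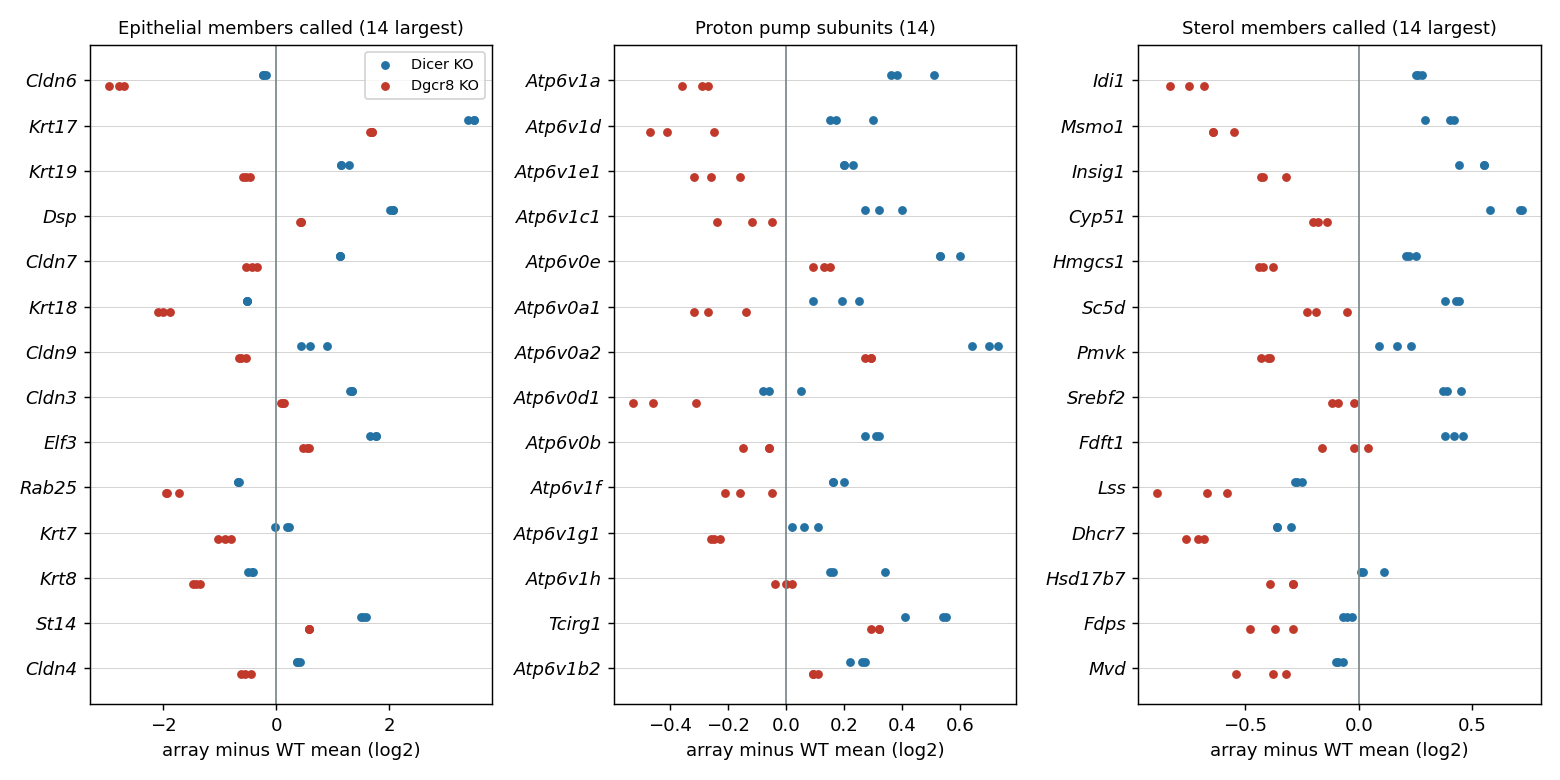
Each point is an array's log2 value minus the WT mean of that gene (grey line at 0), Dgcr8 KO in red and Dicer KO in blue, for the 14 largest called epithelial members, the 14 proton pump subunits and the 14 largest called sterol genes. In each gene the red points lie left of the blue ones, on either side of WT for Idi1 and Atp6v1a, above it in both mutants for Krt17 and below it in both for Krt18.

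Genes of the primed epiblast and of early neural tissue leaned higher in Dgcr8 KO relative to Dicer KO. Of 36 measured 16 were called higher and 2 lower, with a median of 0.23. The 2 lower ones, Cldn6 and Grhl2, are also on the epithelial list. For the 16 called higher, Dgcr8 KO was above WT for 6 and below it for 4. Dicer KO was below WT for 9 of them and above it for 4. Otx2, a homeobox factor of the epiblast and forebrain, read 9.68, 9.89 and 9.73 in Dgcr8 KO against 8.09, 7.96 and 7.80 in Dicer KO, beside WT values of 8.45, 8.57 and 8.57 (difference 1.82, SE 0.0841, limma, adjusted p = 7.95e-07). Neurod1, a neuronal differentiation factor, read 7.16, 7.53 and 7.16 against 5.51, 5.83 and 5.82 (1.56), and Sox4 7.76 on each of the 3 arrays against 6.34, 6.54 and 6.46 (1.31). Both mutants were below WT for Sox4, with a WT mean of 8.27, whereas for Neurod1, with a WT mean of 7.59, Dicer KO alone was called below it. Zic2 (0.69), Olig2 (0.60), Pax6 (0.50) and Ncam1 (0.48) were called higher, and Sox1 (0.26), Nes (-0.00) and Tubb3 (0.04) were not called. Among the 22 neural genes 10 were called higher and 0 lower. That count fell to 5 without Dgcr8 KO replicate 1 or Dicer KO replicate 1, and to 6 without Dgcr8 KO replicate 3 or Dicer KO replicate 2. In bulk RNA, fewer cells of a type and less RNA per cell cannot be told apart.

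Genes of Nodal and activin signalling, which patterns the early embryo, differed in both directions. Among 8 antagonists of Nodal and activin 5 were called higher and 2 lower. Lefty2, a secreted Nodal inhibitor, read 8.03, 8.32 and 8.31 in Dgcr8 KO against 6.35, 6.61 and 6.42 in Dicer KO, beside WT values of 6.73, 6.73 and 6.33 (1.76). Lefty1 read 9.95 to 10.02 against 8.93, 8.93 and 8.89, with WT at 8.08, 8.26 and 8.41 (1.07). The activin antagonist Fst (0.59) and the Smad corepressor Skil (0.59) were higher, and the inhibitory Smad7 (-0.59) and Pmepa1 (-0.43) were lower. Of the ligands, Nodal was 0.37 and Gdf3 0.42 higher, whereas Inhbb, an activin subunit, read 8.09, 8.11 and 8.05 against 9.28, 9.23 and 9.19 (-1.15).

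Hedgehog pathway genes were called higher in 5 of 15 and lower in 0, with the transcription factors Gli3 (0.73) and Gli2 (0.47), the receptor Ptch1 (0.70), the ligand trap Hhip (0.67) and the transducer Smo (0.39), while the target Gli1 (0.13) was not called. Gli3 read 7.78, 7.82 and 7.81 in Dgcr8 KO against 7.07 on average in Dicer KO, with the WT mean of 7.42 between them. In Wnt signalling 13 of 56 were higher and 3 lower. Notum, an enzyme that inactivates Wnt proteins (0.81), the nuclear effector Lef1 (0.80) and the secreted inhibitor Sfrp2 (0.77) led the former and Wnt7b the latter.

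Axon guidance genes gave 21 higher and 8 lower of 62. Beside Tenm3 and Tenm4, the ephrin Efnb2 read 7.79, 7.84 and 7.83 against 6.50, 6.61 and 6.65 (1.23) and the slit receptor Robo1 8.23, 8.51 and 8.40 against 7.30, 7.17 and 7.24 (1.14). The semaphorin Sema5a was lower, with 7.25, 7.32 and 7.31 against 8.55, 8.62 and 8.49 (-1.26), and both mutants were above WT, at 6.12, 6.26 and 6.35.

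Naive pluripotency genes differed in both directions and by little. Of 28 measured 11 were called lower and 6 higher. Tfcp2l1, a factor of the self-renewal network, read 10.41, 10.43 and 10.36 against 11.13, 11.14 and 11.13 (-0.73), Tbx3 differed by -0.60, Klf5 by -0.44, Klf4 by -0.41 and Nanog by -0.33. For all 11 called lower Dicer KO was above WT, and Dgcr8 KO was above WT for 8 of them and below it for 0. Esrrb (0.38) and Fbxo15 (0.37) were higher, and Sox2 (-0.06) and Zfp42 (0.00) were not called. Dppa3, a factor that protects DNA methylation in the early embryo, was 0.61 higher and lost the call without Dgcr8 KO replicate 3 (0.56).

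Sensors of foreign RNA and DNA were lower in Dgcr8 KO in 7 of 17 and higher in 0. For all 7 Dicer KO lay above WT, and Dgcr8 KO lay above WT for 5 of them and below it for 0. Sting1, which relays the signal of cytosolic DNA, read 7.03, 6.99 and 6.93 in Dgcr8 KO against 8.47, 8.57 and 8.54 in Dicer KO, beside WT values of 6.60, 6.39 and 6.35 (difference -1.55, SE 0.0690, limma, adjusted p = 6.26e-07). Oasl1 (-0.68), the DNA sensor Aim2 (-0.60), Oas1a (-0.55), Oas1b (-0.38), the adaptor Mavs (-0.33) and the RNA helicase Ddx58 (-0.26) were the others. Among 25 interferon response genes 4 were higher and 3 lower. Xaf1, which antagonizes apoptosis inhibitors, differed by -1.38, and Ifitm3, which blocks viral entry, by 1.32. B2m, the light chain of class I antigen complexes, read 7.44, 7.83 and 7.50 against 9.12, 9.19 and 9.06 (-1.53).

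In metabolism, glycolysis genes were called in 20 of 28, with 13 lower and 7 higher. Slc2a3, a glucose carrier, was lower (-0.60), as were Aldoc (-0.59) and Pfkp (-0.56), and Slc16a3, the lactate exporter, was higher (0.75). Of 45 genes for oxidative stress and glutathione 13 (28.9%) were lower and 3 higher, with a median of -0.036. That share is not far from the 21.7% lower among all clusters above the median level. The glutathione transferase Gsto1 read 9.44, 9.47 and 9.54 against 10.85, 10.89 and 10.83 (-1.37), Gpx2 differed by -1.11 and Gss by -0.91, and Gclc, the first enzyme of glutathione synthesis, was 0.74 higher. Both mutants lay above WT for Gsto1, at 8.40, 8.59 and 8.66.

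Imprinted genes moved one by one. Plagl1 read 8.87, 8.76 and 8.66 in Dgcr8 KO, 6.99 on each Dicer KO array, and 6.13 on average in WT. Rtl1, which lies antisense to some of the chromosome 12 precursors, read 7.37, 7.27 and 7.43 against 6.45, 6.44 and 6.26 (0.98). Slc38a4, an amino acid carrier, was 1.09 higher and both mutants were below WT, at 10.99, 11.14 and 11.15. Sfmbt2, a Polycomb protein, was lower (7.66, 7.88 and 7.68 against 9.26, 9.30 and 9.26, -1.53), again with WT highest at 10.22, 10.26 and 10.30.

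Markers of other cell types moved with some of these groups. Of 8 trophoblast markers 4 (Elf5, Tfap2c, Krt7 and Krt8) were called lower, and their summed linear level was 1629 to 1670 in Dgcr8 KO, 2434 to 2569 in Dicer KO and 2759 to 2963 in WT. Krt7 and Krt8 also stand on the epithelial list, and the defining factors Cdx2 (-0.02) and Eomes (-0.22) were not called, at means of 6.21 to 6.48 in every genotype, below the median level of 6.89. Fibroblast and feeder cell markers summed to 1076 to 1209 in Dgcr8 KO, 931 to 1003 in Dicer KO and 1077 to 1205 in WT, with 3 of 14 (Dcn, Twist1 and Mmp2) called higher and Col1a1, Col1a2 and Col3a1 not called. The longer fibroblast list had 6 of 29 called higher and 2 lower, among the latter Timp3, an inhibitor of matrix proteases (-1.60). Primitive endoderm markers summed to 1177 to 1230, 1103 to 1116 and 1193 to 1242, with Gata4 (0.52) and Lama1 (0.14) of 8 called higher. The longer primitive endoderm list had 5 of 23 called higher and 3 lower, the latter Sparc (-0.67), Lamc1 (-0.21) and Col4a2 (-0.21). On the longer trophoblast list 9 of 21 were lower and 1 higher. The part of such cells in the epithelial and mesenchymal differences was not tested.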

How the data were processed

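RNA from mouse ES cells of the WT and both mutant genotypes was hybridised to 9 arrays, 3 per genotype, and groups were taken from the sample labels. The authors deposited normalized log2 values for 35557 transcript clusters. The paper names RMA and the submitters' processing notes name GCRMA, both of which summarise probes after quantile normalization, and which one made these values is not settled. The values were used as deposited. Only normalized values were at hand, so signal over background cannot be given per array, and 3 arrays per genotype limit the precision.

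Symbols came from the platform annotation and were updated through RefSeq for 43 clusters. Mitochondrial (4) and Y-linked (97) clusters were left out, 23309 clusters were tested and 22371 autosomal ones counted. Of these 1405 carry several symbols. In R 4.3.3 with limma 3.58.1, lmFit fitted a mean per genotype to all 9 arrays, and eBayes tested Dgcr8 KO minus Dicer KO and each mutant against WT. The Benjamini-Hochberg adjustment covered all clusters tested, and a cluster was called at an adjusted p under 0.05. The test was checked on simulated data. Replicates are plates of a genotype, so p-values measure the spread between plates.

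The members and gene lists were chosen with earlier results of these data known. Genes were named by a rule: Dgcr8 and Dicer1, the 15 per direction with the largest called difference, the 6 per direction on opposite sides of WT, the 4 miRNA precursors per direction, and up to 4 called members per list with the largest difference. The 15 and the 6 were taken from called clusters whose mutant arrays did not overlap. These had a single symbol, not a predicted, RIKEN or accession-like one, and a mean in the higher mutant above the median level. Clusters of miRNA or snoRNA genes were left out there. Further members were named after their values were seen. Lists were described by counts and medians. Motifs were counted on both strands of RefSeq promoter windows: the E-box CACGTG and its longer forms TCACGTGA and GTCACGTG (which overlap it), the Zeb1 site CAGGTG, the Srebf site TCACNCCAC, the Otx2 site TAATCC, the ATF4 site TGATGCAA, the AP-1 site TGACTCA and the YY1 motif, and mature miRNAs were matched by precursor symbol (231 of 261). In all, 26 other settings were fixed for the tests and 1 was added after the data were seen. Same-numbered replicates of the mutants deviated from their group means with correlations of -0.0072, 0.175 and 0.138, so the numbers do not pair the arrays.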

Additional observations from a re-analysis of the deposited data

How the results depend on the processing

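The counts of 2668 clusters higher and 2764 lower in Dgcr8 KO stayed within 1.5 times, in each direction, under most of the alternatives tried. SAM at a false discovery rate of 5% gave 4647 higher, centring arrays on their medians 1768 higher, an added floor of 1.5-fold 593 higher and 486 lower, and an adjusted p under 0.01 gave 1497 and 1701. Leaving out each array in turn gave 1972 to 3093 higher and 2019 to 3225 lower. The replicate number as a block, although the numbers do not pair the arrays, gave 2713 and 2720. Counting the brightest cluster per gene, chosen after the data were seen, gave 2340 and 2469. Of 229 named clusters 79 lost their call under at least 1 alternative and 0 changed direction. Several alternatives, such as SAM, a stricter threshold or leaving out a WT array, keep the same difference, so direction could not change under them. The other scalings moved the median of all clusters by -0.063 to -0.036. The lists of epithelial, proton pump and sterol genes held 22, 1 and 5 members lower by at least 1.5-fold, so the last 2 rest on small differences. The median SE of a difference was 0.0736, which limits how small a difference 3 arrays per genotype can show.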

Other observations

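A few genes are tiled by many transcript clusters of their own, and some moved as a block. They were picked after their values were seen. Chd7, a chromatin remodeller of neural crest and inner ear development, has 30 autosomal clusters and all 30 were called higher in Dgcr8 KO, by 0.50 to 0.93 with a median of 0.77. Dock6, an exchange factor for small GTPases, has 15, all higher by 0.43 to 0.62. In the other direction Cdc5l, a splicing factor, has 11 clusters, 4 of them with distinct values, all lower (-0.32 to -0.24), and of the 15 of Dnajc13, a chaperone of endosomes, 9 were lower. Clusters of 1 gene are not independent.

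Of 1021 olfactory receptor genes, which ES cells are not known to use, 44 (4.31%) were called higher and 3 lower, with a median difference of 0.08, against 6.08% and 0.84% of all clusters in the dimmest of 4 bins by level. The count of higher calls ranged from 20 without Dgcr8 KO replicate 1 to 73 without Dgcr8 KO replicate 2, and was 18 with arrays centred on their medians. The 935 X-linked clusters, outside the comparison, gave 51 higher and 315 lower, and those above the median level had a median difference of -0.39, where that of autosomal clusters was -0.028.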
